A study of Rattus norvegicus with 64 samples.

Results

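The clustered histone genes supply the bulk of the histone protein that packs newly made DNA. They were taken here as every gene whose symbol starts with Hist1h, Hist2h, Hist3h or Hist4h and that had at least 10 counts over all libraries: 34 of the 30045 symbols in the count tables. A further such symbol, Hist2h4a, had 0 counts in every library. By the class that the symbol names, 4 members code for the linker histone H1, 13 for H2A, 11 for H2B, 3 for H3 and 3 for H4. The counts come from RNA sequencing of a piece of lung from 64 rats, males of the outbred Sprague-Dawley stock. The rats had breathed filtered air or fracking sand dust (FSD), the mainly silica dust raised when sand is handled for hydraulic fracturing, by whole-body inhalation (6 hours daily, 4 days), and were killed 1, 7 or 27 days later. Groups of the 10 mg/m3 study held 5 rats on days 1 and 7 and 4 rats on day 27, in air and in FSD alike, and those of the 30 mg/m3 study held 6. Each study had air rats of its own, so dose cannot be told apart from study, and time after exposure cannot be told apart from age. No treatment of the rats other than air or dust is given in the labels, and their ages are not given there.

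A nucleosome holds DNA around a core of H2A, H2B, H3 and H4, and H1 binds where the DNA enters and leaves. The clustered genes are transcribed mainly while DNA is replicated, and their RNA ends in a stem-loop bound by SLBP in place of a poly(A) tail. Libraries primed on poly(A) miss most of that RNA, whereas these were made from total RNA depleted of ribosomal RNA. Replacement histones such as H3.3 come from genes outside the clusters, with poly(A) tails, and are made through the whole cell cycle. Some clustered genes are known to be used mainly in testis, among them Hist1h1t, Hist1h2aa, Hist1h2ba and Hist3h3. In the adult lung most cells do not divide, and dividing cells include progenitors of the epithelium, endothelium, fibroblasts and immune cells.

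Library totals ran from 3420235 to 12359518 counts (median 8716414), of which 1696 to 9293 fell on the members, that is 0.0378% to 0.0945% of a library. Of 12 markers of lung epithelium, 12 had counts in every library. Air rats 51 and 53 of day 1 in the 30 mg/m3 study stood apart from the other libraries by listing 21889 and 22077 genes with a count; calls that changed without them are given with the comparison. The share of counts on the mitochondrial ribosomal RNA genes Rnr1 and Rnr2 was higher at later days, and Rnr2 passed at day 27 against day 1 in both studies (log2 change 1.75 and 1.57). In the 10 mg/m3 study its median was 0.512% at day 1 (0.0961% to 3.01%), 1.60% at day 7 (0.448% to 4.43%) and 3.10% at day 27 (2.62% to 4.00%), and in the 30 mg/m3 study 0.312% (0.105% to 0.903%), 0.456% (0.109% to 0.885%) and 1.10% (0.445% to 1.66%). Levels are given as CPM, counts scaled to a common library size with TMM factors, which set the bulk of genes equal between libraries; they are not divided by gene length, so a level of 1 gene is not set against that of another. In bulk lung, fewer cells of a type and less RNA per cell cannot be told apart.

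The promoters of the members share short motifs that the choice of genes did not use. RefSeq's table of the GRCr8 assembly, a later build than the authors' Rnor_6.0, matched 27 of the 34 symbols to 1 gene, 6 to several genes and 1, Hist1h4a, to none, and it held a promoter for 25. In windows from 250 bases before to 50 bases after the start, read on both strands, the letters TATAAA, which TBP is known to bind, were present in 16 of 25 member promoters (64%) against 14.2% of 33469 promoters of all genes. CCAAT was present in 24 of 25 (96%) against 37.5%, and the octamer ATTTGCAT, which OCT-1 is known to bind in H2B promoters, in 11 of 25 (44%) against 1.78%. By class the octamer lay in 6 of 11 H2A and 5 of 9 H2B promoters and in 0 of 3 H1 and 0 of 2 H3 promoters. A match describes letters only, and members that face each other share windows: Hist2h2ac and Hist2h2be on chromosome 2 share 275 of 300 bases, Hist3h2a and Hist3h2bb on chromosome 10 share 283, and Hist1h2aa and Hist1h2ba on chromosome 17 share 261. The 250 bases before the start are printed for 4 genes that the results turn on. Hist1h1a, an H1 gene, and Hist1h2bk, an H2B gene, were both lower at day 27 in both studies. Hist2h2be, an H2B gene, did not pass there in either. The level of Hist3h2ba, an H2B gene, followed that of red cell genes in the 30 mg/m3 study. Its relation to them did not pass in the 10 mg/m3 study. Capitals mark these motifs or their reverse complements, some of which overlap. Hist1h1a lies at chr17:41794869-41795118 on the minus strand, Hist1h2bk at chr17:47181941-47182190 on the minus strand, Hist2h2be at chr2:186469202-186469451 on the plus strand and Hist3h2ba at chr10:44225171-44225420 on the plus strand, all in GRCr8 and printed 5′ to 3′ in the direction of the gene.
Hist1h1a: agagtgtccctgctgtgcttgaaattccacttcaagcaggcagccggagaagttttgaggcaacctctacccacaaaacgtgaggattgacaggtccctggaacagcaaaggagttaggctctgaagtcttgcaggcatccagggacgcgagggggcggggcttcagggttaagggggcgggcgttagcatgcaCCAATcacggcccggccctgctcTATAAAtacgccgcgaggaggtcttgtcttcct
Hist1h2bk: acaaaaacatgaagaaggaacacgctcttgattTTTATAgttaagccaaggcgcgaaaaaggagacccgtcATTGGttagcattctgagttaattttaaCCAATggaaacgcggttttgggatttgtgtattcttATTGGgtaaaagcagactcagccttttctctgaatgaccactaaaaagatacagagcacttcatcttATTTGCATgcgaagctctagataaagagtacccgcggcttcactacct
Hist2h2be: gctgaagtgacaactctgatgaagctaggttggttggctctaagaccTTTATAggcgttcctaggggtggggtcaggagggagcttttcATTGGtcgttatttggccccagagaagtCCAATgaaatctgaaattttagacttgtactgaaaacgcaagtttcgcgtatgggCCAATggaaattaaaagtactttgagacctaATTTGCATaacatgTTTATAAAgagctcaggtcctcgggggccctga
Hist3h2ba: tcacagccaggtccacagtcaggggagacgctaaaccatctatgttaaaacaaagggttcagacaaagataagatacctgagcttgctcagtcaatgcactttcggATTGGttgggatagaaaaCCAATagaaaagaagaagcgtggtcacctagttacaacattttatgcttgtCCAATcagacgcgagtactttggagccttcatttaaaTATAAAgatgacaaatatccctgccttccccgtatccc

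The H1 promoter had TATAAA 33 to 28 bases and CCAAT 56 to 52 bases before the start and no octamer. Both Hist1h2bk and Hist2h2be had the octamer, at 48 to 41 and at 47 to 40 bases before the start. The genes were picked for printing with their day-27 results known. Whether motif content goes with the change between days was not tested.

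Reads on the members were spread unevenly. Hist1h2bh (H2B) took 22.3% of member CPM over the 64 libraries with a mean of 135.0 CPM, and Hist1h1d (H1) took 18.4% with 111.2 CPM. By class, H2B took 34.01%, H1 25.03%, H2A 18.9%, H4 16.1% and H3 6.05%. The members with the most reads in the other classes were Hist3h2a and Hist1h2ao (H2A), Hist1h3a and Hist2h3c2 (H3), and Hist1h4b and Hist2h4 (H4). The known testis genes were at the bottom: Hist1h1t averaged 0.619 CPM, Hist1h2aa 0.393, Hist1h2ba 0.298 and Hist3h3 0.0781, the last at 0 in 37 libraries. A filter on low counts kept 28 members in the 10 mg/m3 study, 29 in the 30 mg/m3 study (Hist2h2aa3 in addition) and 30 in the fit of both (Hist1h1t in addition). The members that the filter kept out of each of these fits were Hist1h2af, Hist1h2aa, Hist1h2ba and Hist3h3. Histone genes of a class are near-identical copies, and how the counting step treated reads that fit several copies is not stated in the sources at hand; the split of reads among members, and for Hist1h2bh and Hist1h1d, whose symbols match several RefSeq genes, the locus itself, is uncertain. Members also differed in how steady they were: the biological coefficient of variation in the 30 mg/m3 study was 9.87% for Hist2h2be and 75.4% for Hist3h2ba.

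The summed level of the members was highest at day 1 and lower later in both studies. In the 10 mg/m3 study the 5 air rats of day 1 ranged from 371.6 to 689.6 CPM with a median of 573.2, and the 5 FSD rats from 499.1 to 576.0 with a median of 535.2. At day 7 the means were 475.5 ± 66.7 CPM in air and 480.8 ± 42.1 in FSD (SD, n = 5 each), and at day 27 they were 454.5 ± 46.3 and 493.3 ± 43.5 (SD, n = 4 each). Air and FSD overlapped on every day of that study, and the lowest sum, 371.6 CPM, belonged to air rat 17 of day 1. In the 30 mg/m3 study the sum had a median of 785.6 CPM in air (689.4 to 868.7) and 797.2 in FSD (672.8 to 965.8) at day 1. At day 7 the medians were 664.5 CPM (623.8 to 730.7) and 731.3 (673.1 to 764.5), and at day 27 they were 563.4 (518.8 to 626.9) and 523.9 (496.0 to 696.5). Air and FSD overlapped on every day here too. With both treatments pooled, the mean went from 550.1 ± 81.6 CPM (SD, n = 10) at day 1 to 473.9 ± 46.4 (SD, n = 8) at day 27 in the 10 mg/m3 study, and from 792.9 ± 100.6 to 561.1 ± 59.96 (SD, n = 12 each) in the 30 mg/m3 study.

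**Figure D1:**
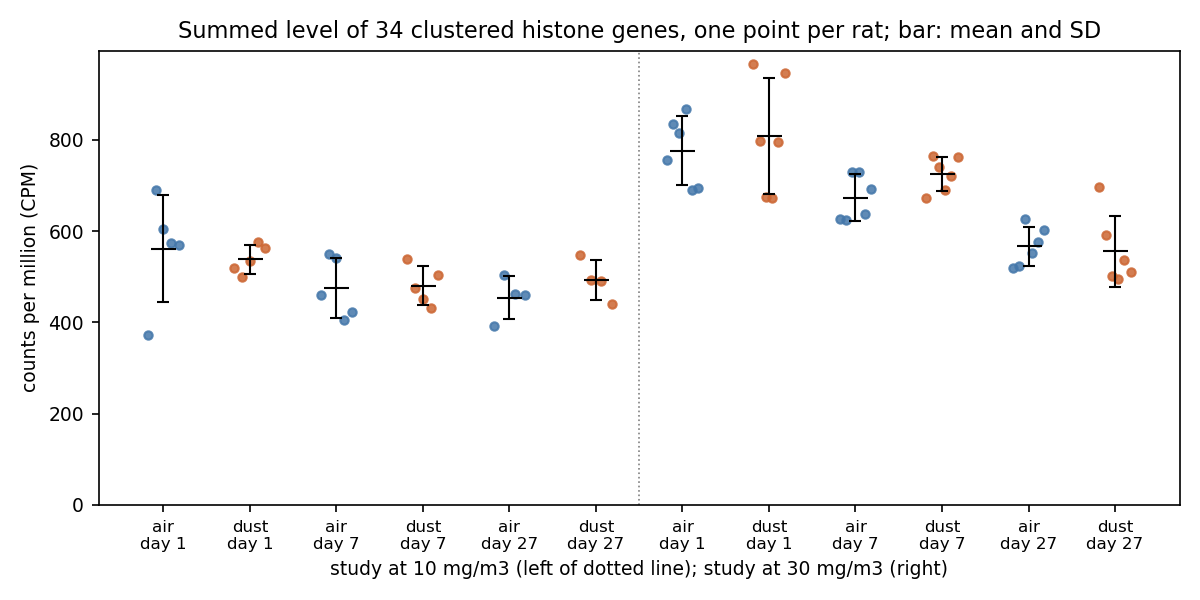
Summed TMM-scaled CPM of the 34 clustered histone genes on the vertical axis, with 1 point per rat, for the 12 groups of both studies; bars give the mean and SD. In the 30 mg/m3 study the air rats of day 27 sit between 518.8 and 626.9 CPM, all below the air rats of day 1 at 689.4 to 868.7, while air and dust overlap on every day.

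Days were compared with air and FSD weighted equally, which asks how the members changed with time after exposure whatever was breathed. In the 30 mg/m3 study, 21 of 29 members tested were lower at day 27 than at day 1 and 0 were higher, by edgeR's quasi-likelihood test at an adjusted p of 0.05; among all 15551 genes tested, 22% were lower and 43.6% changed in either direction. The median log2 fold change was -0.71 over the members and -0.00 over all genes. Among the linker histones 2 of 3 tested passed. Hist1h1a, which codes for H1.1, ranged from 13.3 to 32.9 CPM at day 1 (median 20.2, n = 12) and from 7.03 to 11.7 at day 27 (median 7.53, n = 12). Every rat of day 27 lay below every rat of day 1, and the fitted change was -1.33 ± 0.13 (log2, SE; edgeR adjusted p = 4.75e-09). Here and below, the share of all genes whose days did not overlap was not counted. Hist1h1b, which codes for H1.5, went from a median of 30.7 CPM (23.5 to 47.8) to 18.5 (17.1 to 25.8), a change of -0.71 ± 0.08 with an edgeR adjusted p of 1.52e-07, and its days overlapped. Hist1h1d did not pass: its median was 115.1 CPM (87.4 to 149.9) at day 1 and 110.5 (99.4 to 124.7) at day 27, a difference of -0.10 ± 0.08 (edgeR adjusted p = 0.353).

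Among core histones of the 30 mg/m3 study, 8 of 11 H2A, 7 of 10 H2B, 2 of 2 H3 and 2 of 3 H4 genes tested were lower at day 27. The H2A gene Hist1h2an ranged from 8.62 to 16.1 CPM at day 1 and from 5.16 to 7.95 at day 27 with no overlap, a log2 change of -0.89 ± 0.10 on the log2 scale. The H4 gene Hist2h4 ranged from 37.8 to 63.4 CPM at day 1 and from 22.5 to 34.3 at day 27, also with no overlap (log2 change -0.73 ± 0.09). For both genes each rat of the later day was below each rat of the earlier day. The H3 gene Hist1h3a had a median of 27.0 CPM (19.2 to 54.98) at day 1 and 14.9 (13.2 to 20.1) at day 27 (log2 change -0.94 ± 0.12), and the other H3 gene tested, Hist2h3c2, changed by -0.50 ± 0.08. Among H2B genes Hist1h2bcl1 changed by -1.17 ± 0.13 and Hist1h2bh, with the most reads, by -0.55 ± 0.10, from a median of 197.8 CPM to 132.2 with overlap. Further falls were -0.90 for Hist1h2ail, -0.97 for Hist1h4a, -0.58 for Hist1h2ao and -0.38 for Hist3h2a. The other members tested had differences of -0.33 ± 0.18 for Hist1h4b, -0.33 for Hist1h2bo, -0.28 for Hist2h2ab, -0.16 for Hist2h2aa3, -0.37 ± 0.46 for Hist3h2ba, -0.02 ± 0.07 for Hist2h2be and -0.00 for Hist2h2ac, and did not pass. Without FSD rat 89 of day 27, Hist1h4b (-0.52, edgeR adjusted p = 0.00478) and Hist1h2bo (-0.47, edgeR adjusted p = 0.0381) passed as well. With the contrast drawn in FSD rats alone 21 members passed, and 17 passed in air rats alone. For counts in 1 treatment alone, here and below, the share of all genes that passed is not given. The shares stated belong to both treatments together.

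**Figure D2:**
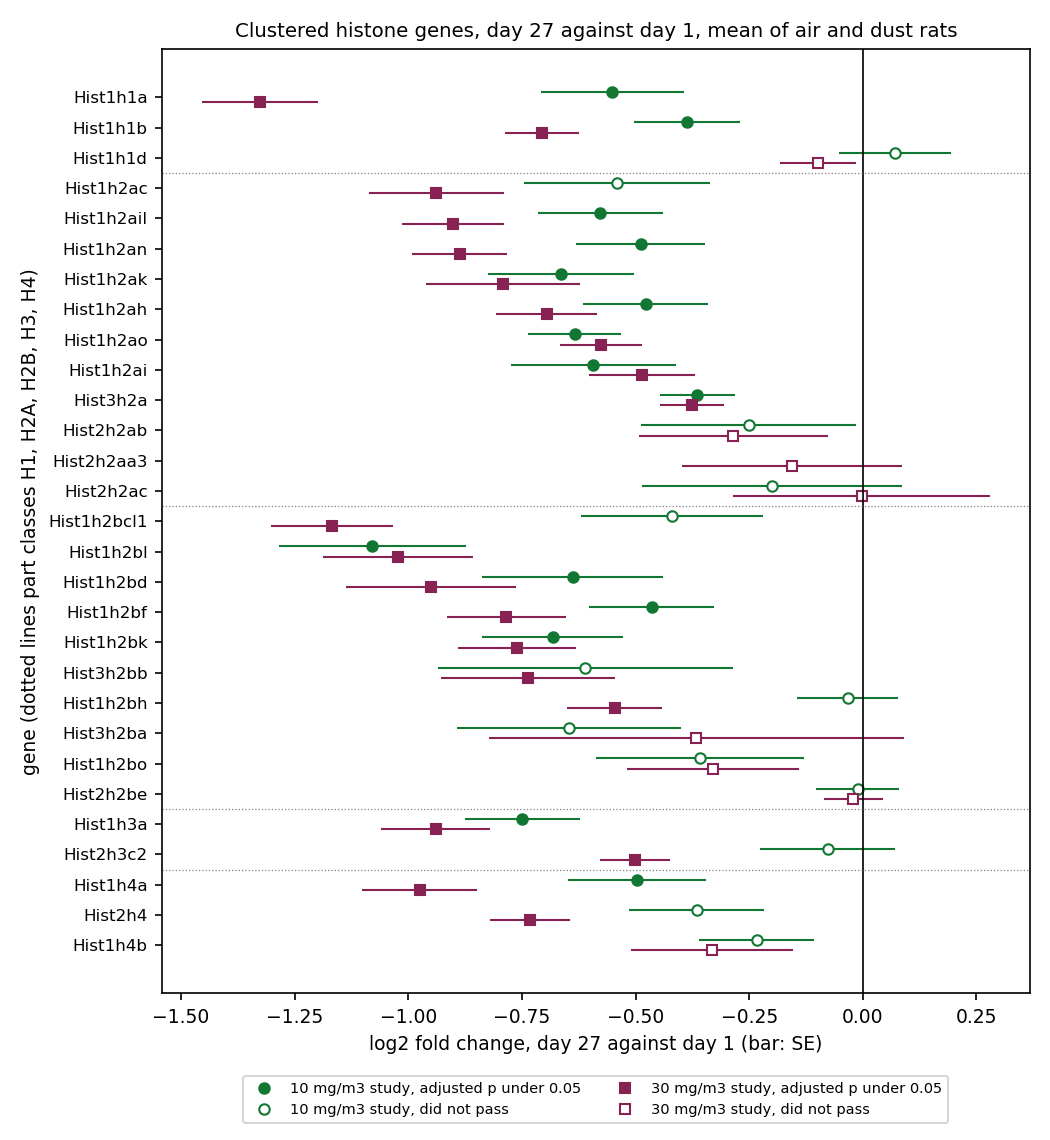
Log2 fold change of each tested member from day 1 to day 27 (horizontal axis, bars are SE) in the 10 and the 30 mg/m3 study, air and dust weighted equally; filled symbols passed an adjusted p of 0.05. All filled symbols lie left of 0, with Hist1h1a at -1.33 in the 30 mg/m3 study and Hist1h1d and Hist2h2be near 0 in both.

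In the 10 mg/m3 study, 15 of 28 members tested were lower at day 27 than at day 1 and 0 were higher, by edgeR's quasi-likelihood test; of 15668 genes, 3.61% were lower and 7.27% changed. The median log2 fold change was -0.48 over the members and -0.00 over all genes, and 27 of 28 members lay below 0. These were 2 of 3 H1, 7 of 10 H2A, 4 of 10 H2B, 1 of 2 H3 and 1 of 3 H4 genes. Hist1h2ao, an H2A gene, gave 15.02, 22.51, 15.91, 15.32 and 13.96 CPM in the air rats and 12.24, 15.89, 14.94, 16.73 and 16.01 in the FSD rats of day 1. At day 27 it gave 9.25, 11.5, 10.1 and 9.10 CPM in air and 10.4, 9.89, 11.9 and 10.5 in FSD. It was the member whose days did not overlap, and it changed by -0.63 ± 0.10 (log2, SE; edgeR adjusted p = 7.9e-04). The share of all genes without overlap was not counted in this study either. The H3 gene Hist1h3a gave 12.6, 27.6, 20.4, 19.2 and 20.2 CPM in air and 24.8, 16.6, 18.3, 20.6 and 17.5 in FSD at day 1, and 8.94, 14.9, 10.02 and 11.7 in air and 14.9, 12.1, 10.8 and 11.01 in FSD at day 27 (-0.75 ± 0.13, edgeR adjusted p = 0.00117). Air rat 17 of day 1, at 12.6, lay within the range of day 27, and the other rats of day 1 lay above it. Changes were -1.08 ± 0.21 for Hist1h2bl, -0.68 ± 0.16 for Hist1h2bk, -0.36 for Hist3h2a, -0.58 for Hist1h2ail, -0.66 for Hist1h2ak, -0.55 ± 0.16 for Hist1h1a and -0.39 ± 0.12 for Hist1h1b. Hist1h1d (0.07), Hist2h2be (-0.01), Hist1h2bh (-0.03), Hist2h3c2 (-0.08), Hist2h4 (-0.37) and Hist1h4b (-0.23) did not pass.

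The 10 mg/m3 count depended on which rats were compared: 6 members passed in air rats alone and 2 in FSD rats alone, against 15 with both. With 1 rat left out, 7 passed without air rat 18 or FSD rat 31 of day 1 or without FSD rat 14, 15 or 16 of day 27, 8 without air rat 19 of day 1 or air rat 5 of day 27, and 9 without air rat 1 of day 27. All 15 members that were lower in the 10 mg/m3 study were among the 21 of the 30 mg/m3 study (100% of the former and 71.4% of the latter). Over all genes tested in both studies, 562 were lower in the 10 and 3407 in the 30 mg/m3 study, and 377 in both (67.1% and 11.1%); the studies share no rats. Of the members tested in both, 7 passed in neither: Hist1h1d, Hist1h2bo, Hist1h4b, Hist2h2ab, Hist2h2ac, Hist2h2be and Hist3h2ba.

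**Figure D3:**
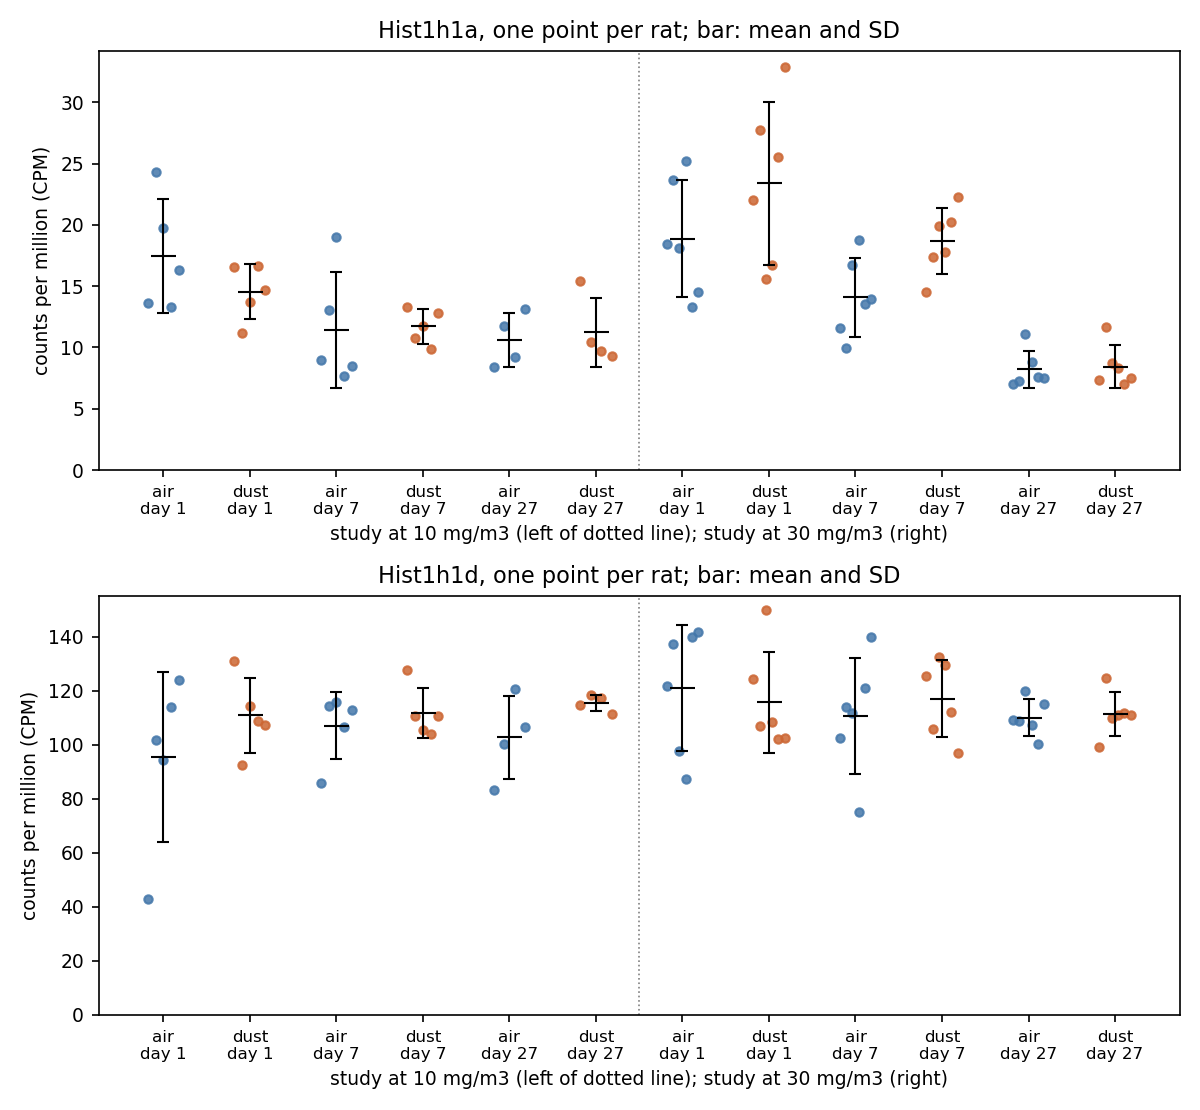
CPM per rat of the linker histone genes Hist1h1a (top) and Hist1h1d (bottom) in the 12 groups. In the 30 mg/m3 study Hist1h1a lies at 13.3 to 32.9 CPM on day 1 and 7.03 to 11.7 on day 27, whereas the days overlap for Hist1h1d.

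The intermediate day differed between the studies. In the 10 mg/m3 study 10 of 28 members were already lower at day 7 than at day 1 and 0 higher (edgeR's quasi-likelihood test; of all genes, 11.3% lower and 24.8% in either direction), with a median of -0.32. These were Hist1h2ao (-0.49), Hist3h2a (-0.37), Hist1h3a (-0.48), Hist1h2bl (-0.66), Hist1h2ak (-0.52), Hist2h4 (-0.48), Hist1h4a (-0.48), Hist1h1a (-0.46), Hist1h2bf (-0.39) and Hist1h1b (-0.30). Without air rat 17 of day 1, which had the lowest member sum, 16 passed. The count was 3 in air rats alone and 2 in FSD rats alone. With the share of Rnr1 and Rnr2 as a covariate 5 of the 10 passed, Hist1h2ak, Hist1h2ao, Hist1h2bl, Hist1h3a and Hist3h2a, and Hist2h2ab (-0.75) passed with them. From day 7 to day 27 of that study 0 members passed (4.44% of all genes changed), and 3 had an unadjusted p under 0.05. The smallest p-values belonged to Hist1h2bk (-0.38 ± 0.16, edgeR adjusted p = 0.143) and Hist1h3a (-0.27 ± 0.13, edgeR adjusted p = 0.221), and, above 0, to Hist1h2bh (0.13) and Hist2h2ab (0.30).

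At 30 mg/m3, 0 of 29 members passed from day 1 to day 7 (edgeR's quasi-likelihood test; 1.31% of all genes changed), with 8 at an unadjusted p under 0.05. Hist1h4b (-0.63 ± 0.18, edgeR adjusted p = 0.063) and Hist1h1a (-0.36 ± 0.12, edgeR adjusted p = 0.102) had the smallest p-values below 0, and Hist2h2aa3 (0.63) and Hist2h2ac (0.60) above 0. Hist1h4b passed without air rat 69 of day 7 (-0.66) or FSD rat 60 of day 1 (-0.68), and without FSD rat 59 of day 1 it passed together with Hist1h1a (-0.41) and Hist1h2bcl1 (-0.39); DESeq2 called Hist1h4b alone (-0.64). From day 7 to day 27 of that study 21 of 29 members were lower and 0 higher, against 13.9% of all genes lower and 25.3% changed, with a median of -0.66. Hist1h3a changed by -0.91 ± 0.12 (edgeR adjusted p = 4.39e-06), from a median of 27.6 CPM (20.9 to 34.6) to 14.9 (13.2 to 20.1) with no overlap. The H4 gene Hist1h4a did not overlap either, at 9.55 to 13.9 CPM on day 7 and 4.49 to 7.34 on day 27 (-0.88). The other members with the smallest p-values were Hist2h4 (-0.67), Hist1h1a (-0.96), Hist1h2ail (-0.76), Hist1h2an (-0.69), Hist1h1b (-0.53) and Hist1h2bf (-0.84). Hist1h2bh passed as well without air rats 51 and 53 (-0.26, edgeR adjusted p = 0.0294). With the share of mitochondrial ribosomal RNA as a covariate 4 of these 21 passed: Hist1h1a (-0.82), Hist1h3a (-0.66), Hist1h4a (-0.73) and Hist2h4 (-0.59).

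The difference between the studies was tested as a change in the 30 mg/m3 study minus the same change in the 10 mg/m3 study, a comparison added after these counts were seen. From day 1 to day 7, 1 of 30 members passed by edgeR's quasi-likelihood test (12% of all genes, 4.5% higher): Hist3h2a, by 0.32. From day 1 to day 27, 1 passed (1.18% of all genes, 0.797% lower): Hist1h1a, by -0.78 ± 0.20 (edgeR adjusted p = 0.0389), which did not pass without air rats 51 and 53, with limma voom, with no filter or in 25 of the 42 fits that left out 1 rat. From day 7 to day 27, 7 passed (5.63% of all genes, 2.29% lower), each with a difference below 0: Hist2h4 (-0.78), Hist1h4a (-0.86), Hist1h1a (-0.87), Hist1h2bf (-0.75), Hist1h3a (-0.64), Hist2h2aa3 (-1.71) and Hist3h2a (-0.34). Within the 10 mg/m3 study, Hist2h4 (0.11) and Hist3h2a (0.01) lay above 0 from day 7 to day 27, and the mean of Hist2h2aa3, not tested there, went from 0.471 ± 0.274 CPM (SD, n = 10) to 0.881 ± 0.456 (SD, n = 8). Hist2h2aa3 entered the fit of both studies through the 30 mg/m3 libraries, so its -1.71 is a description only. Without air rats 51 and 53, Hist1h1b (-0.45, edgeR adjusted p = 0.0466) and Hist1h2bcl1 (-0.73, edgeR adjusted p = 0.0476) passed too. Hist3h2a did not pass in 23 of the 42 fits that left out 1 rat, Hist2h2aa3 in 3, Hist1h3a in 2 and Hist1h2bf in 1. The count of 7 became 3 without air rat 3, 4 without FSD rat 13, 13 without air rat 36 and 11 without air rat 83 or FSD rat 90, and the day 1 to day 7 count ranged from 0 to 5 with 1 rat left out.

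The share of mitochondrial ribosomal RNA differed between the same days. With its share of counts as a covariate, 10 of 29 members passed from day 1 to day 27 in the 30 mg/m3 study, all lower, where 21 passed without it, and 608 of all genes passed where 6774 had. These were Hist1h1a (-1.15), Hist1h1b (-0.50), Hist1h2ail (-0.68), Hist1h2an (-0.68), Hist1h2bcl1 (-0.999), Hist1h2bh (-0.52), Hist1h3a (-0.64), Hist1h4a (-0.80), Hist2h3c2 (-0.41) and Hist2h4 (-0.63), and the median over members was -0.42. At 10 mg/m3, 1 member passed with the covariate, Hist1h3a (-0.78), with a median of -0.31, and 174 of all genes. Since the covariate and the day moved together, their parts cannot be told apart further.

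Members of 1 class changed by unequal amounts, which was read from the log2 ratio of each member to the member of its class with the most counts, within a library. Of 47 ratios compared between day 27 and day 1 with a two-sided permutation test within treatments (100000 draws, Benjamini-Hochberg over the 47), 10 of 23 in the 10 mg/m3 study and 11 of 24 in the 30 mg/m3 study passed, 9 and 9 of them lower. The ratio of Hist1h1a to Hist1h1d differed by -0.67 (permutation adjusted p = 0.0102) and -1.23 (permutation adjusted p = 4.7e-04) in the 10 and the 30 mg/m3 study, and that of Hist1h1b to Hist1h1d by -0.50 and -0.62. Both H1 genes were thus lower relative to Hist1h1d at day 27 in both studies. Among H3 genes the ratio of Hist2h3c2 to Hist1h3a moved the other way, by 0.72 (permutation adjusted p = 0.00110) and 0.40 (permutation adjusted p = 8.73e-04). Among H2B genes the ratio of Hist1h2bl to Hist1h2bh differed by -1.05 in the 10 mg/m3 study, and that of Hist2h2be to Hist1h2bh by 0.03 (did not pass) in the 10 and 0.50 (permutation adjusted p = 0.00127) in the 30 mg/m3 study. A ratio shows unequal change and not which of the pair changed. The counts passed and lower depend on the reference gene of each class. Ratios among other genes were not computed, so no share over all genes stands beside these counts.

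Genes that act with histones or in the cell cycle were taken from lists, and their calls come from the same fits. Of all genes tested, 22% were lower and 43.6% changed from day 1 to day 27 at 30 mg/m3, and 3.61% and 7.27% at 10 mg/m3. From day 1 to day 27 of the 30 mg/m3 study, 23 of 26 mitosis genes were lower and 0 higher (median -0.86), among them Cdk1 (-1.03), the kinase that drives entry into mitosis, Kif20a (-1.31), Nuf2 (-1.33), Ccnb2 (-1.37) and Ccna2 (-1.10); the proliferation marker Mki67 changed by -0.74. Of 43 DNA replication genes, 21 were lower and 2 higher (median -0.26), with Mcm4 (-0.55), Rrm1 (-0.36), Ccne2 (-1.02), Pcna (-0.42), the sliding clamp, and Rpa2 (-0.49) among the lower. Of 20 genes of histone RNA processing, 7 were lower and 4 higher: Slbp, whose product binds the stem-loop, changed by -0.48 (edgeR adjusted p = 8.7e-05), Lsm1 by -0.39, Upf1 by 0.40 and Cpsf1 by 0.33, while Npat, a coactivator of histone transcription, differed by -0.12 and did not pass. Of 15 histone chaperones, 7 were lower, Asf1b by -0.98 and Nasp by -0.50 among them, and 3 higher, Hira by 0.61 among them. Of 9 replacement histone genes tested, 2 were lower, H3f3c (-1.93) and H1f0 (-0.20), and 2 higher, H1fx (0.79) and H2afy (0.15); H2afz (-0.21) and H3f3b (-0.08) did not pass.

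Over the same days of the 10 mg/m3 study, 6 of 26 mitosis genes were lower and 0 higher (median -0.36), among them Ccnb1 (-0.66), Kif20a (-0.68), Cdk1 (-0.64), Top2a (-0.48) and Bub1b (-0.61), and Mki67 (-0.25) did not pass. Of 43 DNA replication genes 1 was lower, Tk1 (-0.51), and Pcna (-0.17) did not pass. Of 20 processing genes 0 passed by edgeR's quasi-likelihood test and 4 had an unadjusted p under 0.05, with Slbp at -0.29 (edgeR adjusted p = 0.054). Of 9 replacement histone genes 1 was lower, H2afz (-0.40), while H1f0 (0.12) and H3f3b (0.08) did not pass, and of 15 chaperones 1 was higher, Atrx (0.26). The median change of the members, -0.48, was further from 0 than that of the mitosis list in this study and nearer to 0 in the 30 mg/m3 study; the difference between lists was not tested.

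Each FSD group was set against the air rats killed on that day of its study, which asks what inhaled dust changed. A total of 0 members passed on any day of either study by edgeR's quasi-likelihood test, nor in the mean over days or the test of whether the dust effect depended on the day. Few genes of any kind did: of all genes tested, 0.121%, 0% and 0% passed on days 1, 7 and 27 at 10 mg/m3, 0%, 0.0643% and 0% at 30 mg/m3, and for the mean over days 0.0319% and 1.2%. At 10 mg/m3, 0 members had an unadjusted p under 0.05 in any of these. At 30 mg/m3, 6 did on day 1, 3 on day 7, 0 on day 27, 8 for the mean and 1 for the dependence on day. Counts at an unadjusted p, here and elsewhere, have no share of all genes at that threshold beside them. They are not read as a result about the members.

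At 30 mg/m3 on day 1, 23 of 29 members lay above 0 with a median of 0.26 log2, where all genes had 0.02. Hist1h1b ranged from 23.5 to 33.7 CPM in air (median 27.6) and from 30.6 to 47.8 in FSD (median 35.9); the groups overlapped, and the difference of 0.38 ± 0.11 did not pass (edgeR adjusted p = 0.189). The H2B gene Hist1h2bf differed by 0.53 ± 0.18 (edgeR adjusted p = 0.212). Below 0, Hist2h2be differed by -0.25 ± 0.09 (edgeR adjusted p = 0.249) and Hist1h2bh by -0.12. On the same day 26 of 26 mitosis genes lay above 0 (median 0.31), as did 34 of 43 DNA replication genes (median 0.15), and 0 genes of either list passed by edgeR's quasi-likelihood test, with 7 and 7 at an unadjusted p under 0.05. At 10 mg/m3 on day 1 the sign was the other way for most members, with 3 of 28 above 0 and a median of -0.15. There Hist1h2bcl1 differed by -0.51 ± 0.26 (edgeR adjusted p = 0.293), Hist3h2bb by -0.67, Hist1h1d by 0.23 and Hist1h4a by 0.17, and 4 of 26 mitosis genes lay above 0. Hist1h1d was at 42.9 CPM in air rat 17 and at 94.4 to 124.2 in the other air rats of that group. Members come from the same rats and can share reads, so their signs are not independent. No member passed on day 1 in either study.

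**Figure D4:**
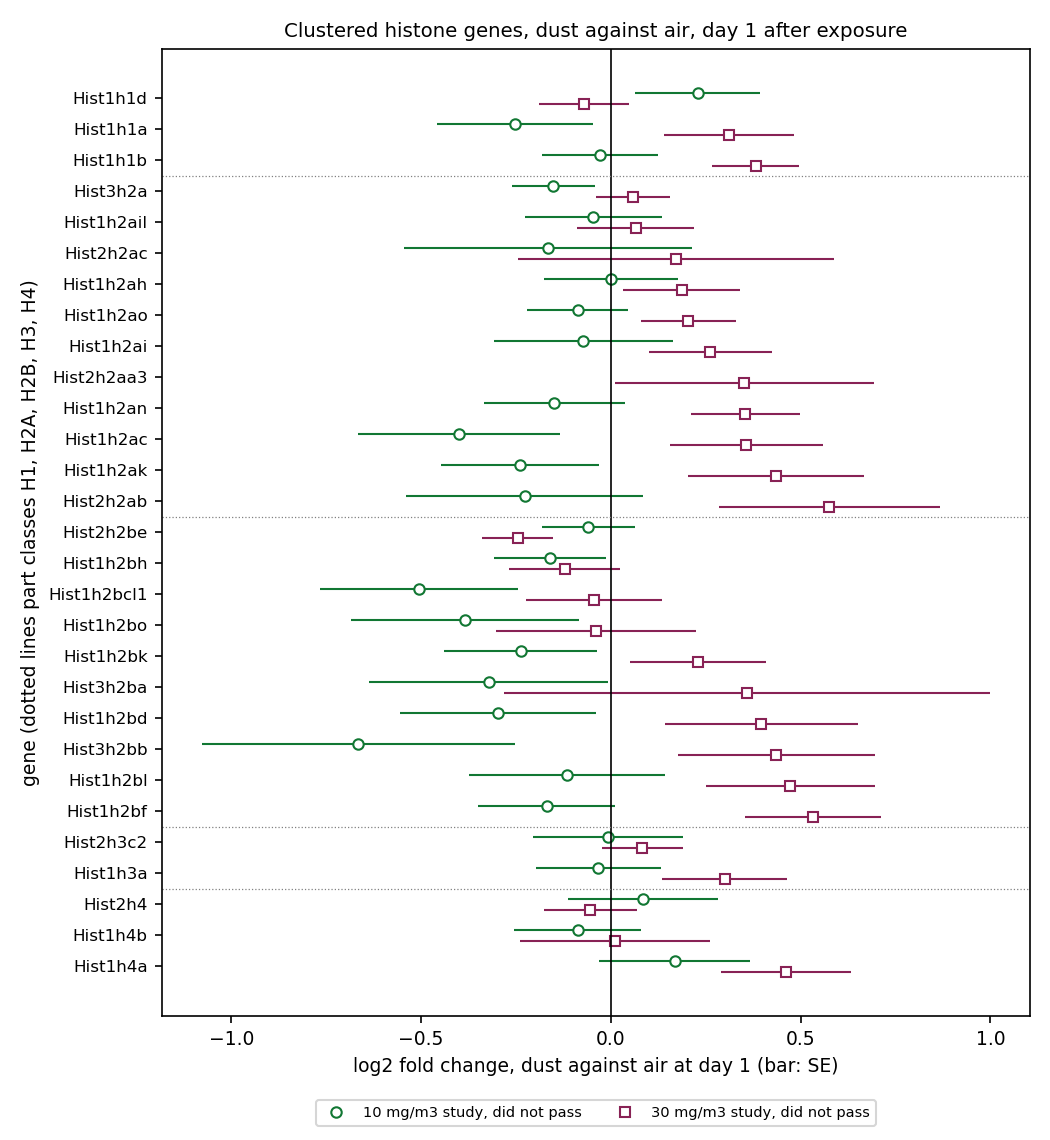
Log2 fold change of each tested member in dust against air at day 1 (horizontal axis, bars are SE) in the 10 and the 30 mg/m3 study. Symbols are open because 0 members passed an adjusted p of 0.05; 3 of 28 lie above 0 at 10 mg/m3 and 23 of 29 at 30 mg/m3.

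The dust effect at 30 minus that at 10 mg/m3 on day 1 was tested in a fit of all libraries. Of 30 members 0 passed by edgeR's quasi-likelihood test, against 10.4% of all genes, with 7 at an unadjusted p under 0.05 and a median of 0.37. Hist1h2bf differed by 0.74 ± 0.26 (edgeR adjusted p = 0.0531) and Hist1h2ac by 0.79 ± 0.32 (edgeR adjusted p = 0.09997), and below 0 Hist1h1t by -1.20 and Hist1h1d by -0.27. Hist1h2bf passed with DESeq2 (0.71), without air rat 52 (0.79) or 53 (0.72) and without FSD rat 59 (0.80) or 60 (0.79), and without air rats 51 and 53 together both Hist1h1a (0.78) and Hist1h2bf (0.75) passed; without FSD rat 31 of the 10 mg/m3 study Hist3h2bb passed (1.51). On days 7 and 27, 0 members and 0% of all genes passed, with 1 and 0 members at an unadjusted p under 0.05. Hist2h2be had the smallest p on day 7 (0.48, edgeR adjusted p = 0.356), followed above 0 by Hist1h2bcl1 (0.48) and below 0 by Hist1h2ah (-0.18) and Hist3h2bb (-0.23); on day 27 the smallest were Hist1h2ac (0.41) and Hist1h2bd (0.36) above 0 and Hist2h2be (-0.29) and Hist1h2bcl1 (-0.61) below.

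For the later days the members with the smallest p-values are given. At 30 mg/m3 on day 7 the H2B gene Hist2h2be ranged from 20.8 to 25.1 CPM in air (median 23.3) and from 24.5 to 35.1 in FSD (median 29.5). The groups overlapped in a narrow band, and the difference of 0.34 ± 0.09 did not pass (edgeR adjusted p = 0.186). Its dust effect depended on the day at an unadjusted p of 2.5e-04, with an adjusted p of 0.193 by edgeR and 0.0369 by DESeq2. Also on day 7 Hist1h1a differed by 0.40, and below 0 Hist3h2bb by -0.25 and Hist1h2ao by -0.10. On day 27 at 30 mg/m3 the smallest p-values belonged to Hist2h2aa3 (-0.56), Hist2h2ac (-0.55), Hist1h2bd (0.40) and Hist1h2bl (0.25). At 10 mg/m3 they belonged on day 7 to Hist1h2bl (-0.33), Hist1h2ao (-0.15), Hist2h2ab (0.38) and Hist1h2ak (0.14), and on day 27 to Hist2h2be (0.22), Hist1h2bcl1 (0.45), Hist1h2ac (-0.20) and Hist1h2ak (-0.15).

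In the mean over days at 30 mg/m3, 24 of 29 members lay above 0 with a median of 0.09. As on single days, the signs of members are not independent. The share of all genes above 0 and their median are not given for the mean over days. The H1 genes had the smallest p-values: Hist1h1b at 0.22 ± 0.07 (edgeR adjusted p = 0.0875) and Hist1h1a at 0.25 ± 0.10 (edgeR adjusted p = 0.196), and below 0 stood Hist2h4 (-0.08) and Hist1h2bh (-0.05). Hist1h1a passed without air rats 51 and 53 (0.32, edgeR adjusted p = 0.0482), and Hist1h1b passed without air rat 69 of day 7 (0.24, edgeR adjusted p = 0.0457). At 10 mg/m3, 15 of 28 lay above 0 with a median of 0.00, and the smallest p-values belonged to Hist1h1d (0.15), Hist2h2ab (0.18), Hist1h2bf (-0.13) and Hist1h2ac (-0.15). The Hist1h1d value includes air rat 17 of day 1, at 42.9 CPM, far below the other air rats of that day. For the 10 members with the most reads in their class, 2 per class, the daily differences lay between -0.16 and 0.23 at 10 mg/m3 and between -0.25 and 0.38 at 30 mg/m3.

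Air rats of the 30 mg/m3 study were also set against those of the 10 mg/m3 study over the 3 days, where study and anything done separately for each study cannot be told apart. Of 30 members 15 were higher in the 30 mg/m3 study and 0 lower by edgeR's quasi-likelihood test, against 12.7% of all genes higher and 29.8% changed, with a median of 0.35. Hist2h2aa3 (H2A) differed by 2.77 ± 0.28, Hist3h2ba by 1.95 ± 0.38, Hist1h2bcl1 by 1.10, Hist1h2ao by 0.83 ± 0.08 (edgeR adjusted p = 1.2e-12), Hist1h2ai by 0.80, Hist1h2bh by 0.78, Hist1h2bk by 0.68, Hist1h2ail by 0.58 and Hist2h3c2 and Hist1h3a by 0.56 each. The low-count filter kept Hist2h2aa3, counted among the 15, in the 30 and not in the 10 mg/m3 study. It entered this fit through the libraries where it was high, so its difference is a description only. Among members with many reads Hist1h4b (0.54) and Hist2h4 (0.25) were higher as well, while Hist3h2a (0.09), Hist2h2be (-0.05) and all 4 H1 genes, among them Hist1h1d (0.16) and Hist1h1b (0.09), did not pass. With the share of Rnr1 and Rnr2 as a covariate Hist1h1d passed (0.26, edgeR adjusted p = 0.0338), while Hist1h2bf, Hist1h4a, Hist1h4b and Hist2h4 did not. Without air rats 51 and 53 Hist2h4 did not pass and Hist2h2ac did (0.61, edgeR adjusted p = 0.0412). Red cell genes differed in the same comparison: 7 of 7 tested were higher, with a median of 3.38.

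A few members followed the red cell genes from rat to rat. Of 9 erythroid markers 7 are in the tables (Hba-a1 and Hba-a2 are not listed under those symbols), 6 had counts in every library and 0 were at 0 throughout. Their summed level in the 30 mg/m3 study had a median of 3198 CPM at day 1 (2001 to 17180), 2326 at day 7 (1640 to 4192) and 1823 at day 27 (732.9 to 15080), and in the 10 mg/m3 study 1484 (969.8 to 2046), 988.1 (741.6 to 1382) and 734.5 (538.2 to 1195). Hist3h2ba reached 38.1 CPM in FSD rat 57 of day 1, 32.1 in FSD rat 89 of day 27 and 16.1 in FSD rat 61 of day 1, the rats with the highest erythroid sums of the 30 mg/m3 study. Air rat 85 of day 27 and air rat 54 of day 1 had more Hist3h2ba CPM than rat 61. High values were thus not confined to FSD rats. Relations were computed on log2 levels after subtracting the mean of each group, over 171 relations in all (members against 3 measures in each study), with permutation within groups and Benjamini-Hochberg adjustment; a relation passed where the adjusted permutation p of Pearson's r was under 0.05. Hist3h2ba in the 30 mg/m3 study had Pearson's r of 0.944 and Spearman's rho of 0.916 over 36 rats, both with a permutation p of 1e-05, the smallest the draws can give, and adjusted p of 8.55e-04; r was 0.914 without rats 57 and 89. Hist1h4b had r of 0.860 and rho of 0.843 with the same permutation p and adjusted p for each, and r of 0.786 without those rats. Hist1h2bo had r of 0.598 (permutation p = 0.00573, adjusted 0.0316) and rho of 0.504 (permutation p = 0.0107, adjusted 0.0523), and r of 0.414 without them. No other member of the 29 tested passed, and in the 10 mg/m3 study, where erythroid sums were lower, 0 of 28 passed (r of 0.244 for Hist3h2ba). By Spearman's rho, Hist1h4a (0.536) and Hist1h2an (0.560) had an adjusted permutation p of 0.0496 each there. Genes other than members were not set against the erythroid sum, so these counts have no share over all genes beside them.

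**Figure D5:**
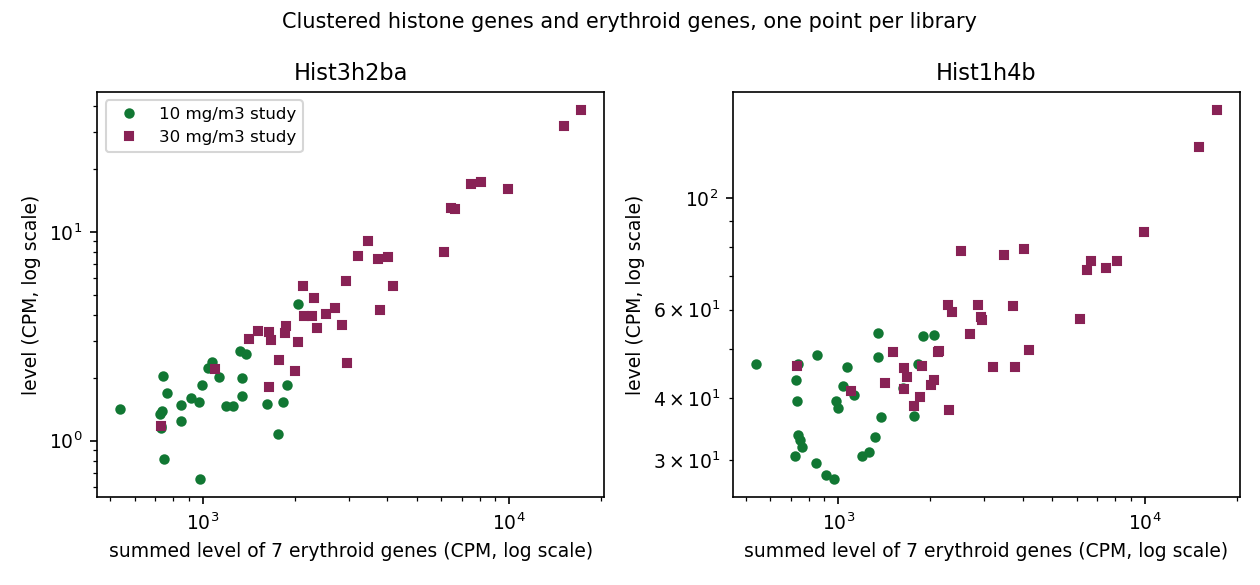
CPM of Hist3h2ba and of Hist1h4b (vertical, log axis) against the summed CPM of 7 erythroid genes (horizontal, log axis), 1 point per rat of both studies. Both genes are highest in FSD rats 57 and 89, which have the highest erythroid sums, 17180 and 15080 CPM in the 30 mg/m3 study.

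Within groups, more members moved with the DNA replication genes. Against the mean log2 level of the 43 replication genes, 15 of 28 members passed in the 10 mg/m3 study and 11 of 29 in the 30 mg/m3 study, all with r above 0 (medians over members 0.56 and 0.44). By rho 10 and 9 passed. Relations with the replication genes and with the mitochondrial ribosomal RNA share were computed for members alone. How many other genes would pass is not known. Without the 2 rats farthest from the median of the list, r of the members that passed ran from 0.303 to 0.631 and from 0.455 to 0.724; the lowest was Hist1h4a in the 10 mg/m3 study, at 0.510 with air rats 17 and 18 and 0.303 without them, and Hist1h2bk there went from 0.637 to 0.379. At 10 mg/m3 the H2A gene Hist1h2ac had the highest value, with r of 0.745 (permutation p = 1.2e-04, adjusted 0.00513) and rho of 0.661 (permutation p = 6.6e-04, adjusted 0.0141) over 28 rats, and r of 0.631 without air rats 17 and 18. At 30 mg/m3 it was Hist1h4b, with r of 0.658 (permutation p = 8.6e-04, adjusted 0.0163) and rho of 0.674 (permutation p = 1.5e-04, adjusted 0.00855) over 36 rats, and r of 0.620 without FSD rats 59 and 61. In the same rats Hist1h4b had a higher r, 0.860, against the erythroid genes. Hist3h2ba (r of 0.623) and Hist1h2bo (0.586), which passed against the erythroid genes too, were also among the 11. Whether the relations are separate was not tested. Hist1h2ac in the 30 mg/m3 study had r of 0.0772 and did not pass. Against the mitochondrial ribosomal RNA share, 0 of 28 and 10 of 29 members passed, all 10 with r below 0, led by Hist1h2ao with r of -0.680 (permutation p = 6e-05, adjusted 0.00342) and rho of -0.580 (permutation p = 6.4e-04, adjusted 0.0141), and r of -0.640 without air rats 52 and 84. By rho 1 of 28 and 10 of 29 passed, the 1 being Hist1h2ao in the 10 mg/m3 study (rho of -0.569, permutation adjusted p = 0.0436). The levels in 1 library share its scaling and depth, and members with near-identical copies can share reads.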

How the data were processed

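Stranded libraries of ribosome-depleted total RNA from 64 rat lungs were sequenced, per the labels' protocols. The authors deposited read counts per gene symbol, as whole numbers with no normalization. Their processing notes name HISAT2 2.1.0, HTSeq 0.6.1, Trimmomatic 0.35, SAMtools 1.8 and bcl2fastq 2.19, with Rnor_6.0 as the build. Not given in the sources used here were annotation, strand setting and the handling of reads that map to several places; overlapping, antisense and copied genes are therefore uncertain. Rats were taken from the numbers in the titles, and p-values measure the spread between these libraries.

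Tests used edgeR 4.0.16 in R 4.3.3 (TMM factors, filterByExpr with a minimum count of 10 and a minimum total of 15, quasi-likelihood F test with robust estimation, Benjamini-Hochberg over all genes tested at 0.05), with the 6 groups of a study in 1 fit and all 12 groups in another for differences between studies. The lowest chi-square per degree of freedom between libraries of a group was 2.14 over 142 pairs, so none was counted as a copy. Scripts were tested on simulated data. Alternatives were DESeq2 1.42.0, limma 3.58.1 voom, RLE factors, no filter, leaving out each library, leaving out air rats 51 and 53, a covariate for the mitochondrial ribosomal RNA share, fewer groups in the fit, and air alone. Added after seeing the data were dust alone, differences in time change between studies, within-class ratios (0.5 counts added) and relations across rats. Promoters came from RefSeq's GRCr8 table.

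The members and the 14 gene lists were chosen with earlier results of these data known. Members named are the 2 per class with the most reads, up to 8 called per direction and comparison, and, where fewer than 3 were called, the 2 smallest p per direction; from other lists Slbp, Npat, Pcna, Mki67, H3f3b, H2afz and H1f0 and up to 5 called. Others were named after their values were seen.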

Additional observations from a re-analysis of the deposited data

Results flagged for a closer look

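A single rat stood far from the others of its group, by Dixon's test of the gap to the nearest rat, in 13 of 132 combinations of a group with a summed level or a member with many reads; chance gives about 5% of such groups. Among H1 genes this was Hist1h1d in FSD rat 43 of day 7 at 10 mg/m3, at 127.7 CPM against 104.2 to 110.7 in the others. Among H2A genes, Hist3h2a was at 41.77 CPM in air rat 69 of day 7 at 30 mg/m3 (others 28.24 to 33.17), at 28.66 in FSD rat 13 of day 27 at 10 mg/m3 (26.8 to 26.97) and at 24.1 in FSD rat 45 of day 7 at 10 mg/m3 (26.52 to 27.02). Hist1h2ao was at 22.51 CPM in air rat 18 of day 1 at 10 mg/m3 (13.96 to 15.91) and at 32.53 in air rat 69 (22.32 to 24.71). The H2B gene Hist1h2bh was at 114.3 CPM in air rat 3 of day 27 at 10 mg/m3 (85.48 to 89.36).

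Among H3 genes, Hist1h3a was at 20.1 CPM in FSD rat 90 of day 27 at 30 mg/m3 (13.22 to 15.16). Hist2h3c2 was at 5.516 CPM in air rat 17 of day 1 (13.91 to 16.28), at 20.56 in air rat 36 of day 7 (9.624 to 12.67) and at 9.005 in FSD rat 44 of day 7 (11.91 to 12.97), all in the 10 mg/m3 study. Among H4 genes, Hist1h4b was at 126.5 CPM in FSD rat 89 of day 27 (38.55 to 57.5) and Hist2h4 at 63.42 in FSD rat 62 of day 1 (39.59 to 44.55), both in the 30 mg/m3 study.

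The change with time differed between the studies, by a test of the difference itself in edgeR, for 1 member from day 1 to day 7, Hist3h2a (log2 0.319), and 1 from day 1 to day 27, Hist1h1a (-0.784). From day 7 to day 27 it differed for Hist1h1a (-0.867), Hist1h2bf (-0.749), Hist1h3a (-0.639), Hist1h4a (-0.855), Hist2h2aa3 (-1.71), Hist2h4 (-0.777) and Hist3h2a (-0.339), the change in the 30 mg/m3 study minus that in the 10 mg/m3 study being below 0 for each. Study, dose and the separate groups of rats cannot be told apart in these differences. The low-count filter kept Hist2h2aa3 in the 30 and not in the 10 mg/m3 study, so its value is a description only and not a test result. With 1 rat left out, Hist1h1a from day 1 to day 27 did not pass in 25 of 42 fits. Hist3h2a from day 7 to day 27 did not pass in 23 of 42.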

How the results depend on the processing

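No value past the threshold changed sign under the alternatives run, and the ratios of summed levels moved by less than the spread between rats. No paired analysis was possible because no rat number in the titles occurs in more than 1 group. The counts of members called that moved were, for day 7 against day 1 at 10 mg/m3 (10), 3 in air alone, 2 in dust alone and 6 with the mitochondrial ribosomal RNA share as covariate, and for day 27 against day 1 there (15) 6, 2 and 1. With that covariate, day 27 against day 1 at 30 mg/m3 gave 10 (21) and day 27 against day 7 gave 4 (21). DESeq2 called 1 where edgeR called 0 for day 7 against day 1 and for the dependence on day at 30 mg/m3, and for the dose difference at day 1. Without air rats 51 and 53 the mean dust effect at 30 mg/m3 gave 1 (0) and the dose difference at day 1 gave 2 (0). For differences in time change between studies, day 7 against day 1 (1) gave 0 with the covariate, day 27 against day 1 (1) gave 2 with DESeq2, 8 with the covariate and 0 with voom, no filter or without air rats 51 and 53, and day 27 against day 7 (7) gave 11 with DESeq2 and 16 with the covariate. The cause was not tested.

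With 1 library left out the counts ran from 7 to 16 for day 7 and 7 to 17 for day 27 against day 1 at 10 mg/m3, 0 to 3 for day 7 against day 1 at 30 mg/m3, 0 to 1 for the mean dust effect there and for the dose difference at day 1, and 0 to 5, 0 to 2 and 3 to 13 for the differences in time change of day 7 against day 1, day 27 against day 1 and day 27 against day 7. Another scaling, tool or filter moved the median of all genes by at most 0.0929 log2. The filter on low counts kept 4 members out of every test that used it. With no filter, 1 of them, Hist1h2ba, passed for day 27 against day 1 at 10 mg/m3 (-1.545, edgeR adjusted p = 0.0488). It had 162 counts over all libraries.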
